A study of Homo sapiens with 12 samples.

Results

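The genes described here encode enzymes other than DHODH that pass electrons to ubiquinone in the inner mitochondrial membrane or reduce quinones elsewhere in the cell. They are GPD2, ETFDH, SQOR, PRODH, CHDH, ETFA, ETFB, NQO1 and AIFM2, chosen by name and matched by symbol, 9 of the 63241 genes in each count table. Of these 9 genes, 8 had enough counts to be tested, among 19373 tested genes in all, and PRODH did not. The RNA came from MDA-PCa-2b, a cell line established from human prostate cancer, although the growth protocol in the labels also names MDA-PCa-2a, and that conflict is not settled by the labels. There were 12 poly-A selected libraries in 4 groups of 3, which were a rescue of knock down 2 of DHODH (KDR), DHODH knock down 2 (KD2), DHODH knock down 1 (KD1) and NT. The labels do not state what NT stands for, what construct lowered DHODH, how the rescue was made, or whether the libraries of a group came from separate cultures, so the p-values rest on differences among libraries that could be technical.

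Ubiquinone is a lipid-soluble carrier that takes electrons from several dehydrogenases and hands them to complex III of the respiratory chain. DHODH, the pyrimidine synthesis enzyme targeted in the study, is one of these dehydrogenases. GPD2 feeds in electrons from glycerol 3-phosphate, SQOR from hydrogen sulfide, CHDH from choline and PRODH from proline, while the ETFA and ETFB subunits of electron transfer flavoprotein collect electrons from fatty acid and amino acid dehydrogenases and deliver them through ETFDH. NQO1 and AIFM2 (FSP1) reduce quinones with electrons from NAD(P)H outside the respiratory chain, and AIFM2 regenerates reduced ubiquinone that traps lipid radicals.

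Library totals were 23786288 to 38240369 counts. DHODH itself was not called lower in either knockdown: it averaged 18.6 ± 0.918 counts per 1000000 counts (CPM) in KDR, 13.1 ± 1.73 CPM in KD2, 10.3 ± 0.674 CPM in KD1 and 10.5 ± 2.51 CPM in NT (SD, n = 3 each). All CPM here and below use library totals over the tested genes, scaled by TMM factors, so they differ slightly from unscaled values. The log2 fold change of DHODH was 0.82 for KDR against NT (adjusted p = 1e-04, edgeR), 0.31 for KD2 against NT (adjusted p = 0.097, and 0.52 with adjusted p = 0.0014 without NT replicate 2) and -0.03 for KD1 against NT (adjusted p = 0.97). The RNA of the targeted gene thus did not show the decrease that the labels KD2 and KD1 name, and every direction below is between libraries as labelled. The biological coefficient of variation between libraries was 5.52% in KDR, 7.17% in KD2, 6.61% in KD1 and 15.8% in NT, where replicate 2 stood apart and left 8.56% when taken out. The 10 markers of luminal prostate cells summed to 16206 to 16643 CPM in KDR, 10843 to 11158 CPM in KD2, 16213 to 16595 CPM in KD1 and 16134 to 19114 CPM in NT, and 9 of them were lower in KD2 than in NT. The 14 markers of fibroblasts, endothelium and immune cells summed to 3.11 to 4.84 CPM in KDR, 2.55 to 3.44 CPM in KD2, 4.35 to 5.15 CPM in KD1 and 3.85 to 6.02 CPM in NT, with 13 of the 14 averaging under 1 CPM in every group. The part of the lower luminal markers in any result below was not tested. In bulk RNA, fewer cells with a transcript and less of it per cell cannot be told apart.

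The 250 bases before a RefSeq transcription start (GRCh38.p14) were available for 7 of the 9 genes, in 9 windows. Shown are those of GPD2, the member with the largest change, and of the 3 members called higher in KDR than in KD2, read 5′ to 3′ on the gene's own strand, with matches to the motifs searched in capitals.
GPD2, upstream start, chr2:156435302-156435551, plus strand: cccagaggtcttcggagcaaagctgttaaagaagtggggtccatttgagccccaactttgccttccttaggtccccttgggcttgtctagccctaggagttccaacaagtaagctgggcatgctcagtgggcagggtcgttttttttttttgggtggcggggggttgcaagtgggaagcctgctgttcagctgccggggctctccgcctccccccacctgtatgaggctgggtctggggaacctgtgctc
GPD2, downstream start, chr2:156436129-156436378, plus strand: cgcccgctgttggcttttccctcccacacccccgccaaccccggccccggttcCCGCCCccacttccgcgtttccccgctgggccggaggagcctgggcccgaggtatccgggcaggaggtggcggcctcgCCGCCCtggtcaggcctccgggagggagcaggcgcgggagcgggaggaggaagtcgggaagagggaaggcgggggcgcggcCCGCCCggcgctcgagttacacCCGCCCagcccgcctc
SQOR, chr15:45634779-45635028, plus strand: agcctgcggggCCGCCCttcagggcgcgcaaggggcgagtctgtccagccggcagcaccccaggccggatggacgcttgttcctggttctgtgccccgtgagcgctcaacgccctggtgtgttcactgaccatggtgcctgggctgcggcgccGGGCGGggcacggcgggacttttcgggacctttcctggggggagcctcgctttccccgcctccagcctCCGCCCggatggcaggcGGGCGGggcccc
NQO1, chr16:69726561-69726810, minus strand: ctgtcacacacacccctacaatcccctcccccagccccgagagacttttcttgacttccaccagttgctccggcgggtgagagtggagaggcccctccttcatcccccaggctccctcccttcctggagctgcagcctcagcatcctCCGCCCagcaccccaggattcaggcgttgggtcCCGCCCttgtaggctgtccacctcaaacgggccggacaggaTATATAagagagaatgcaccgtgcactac
AIFM2, chr10:70132826-70133075, minus strand: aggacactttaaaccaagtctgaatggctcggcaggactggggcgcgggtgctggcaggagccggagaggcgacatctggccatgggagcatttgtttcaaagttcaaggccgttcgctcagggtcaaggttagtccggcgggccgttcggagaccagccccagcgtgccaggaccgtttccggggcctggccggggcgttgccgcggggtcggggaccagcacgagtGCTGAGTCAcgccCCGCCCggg
Capitals mark matches to the GC box (GGGCGG), to the TATA box and to the core of the antioxidant response element. The TATA box was searched as TATANA. The antioxidant response element core was searched as TGACNNNGC, a sequence known to be bound by NRF2. All were searched on both strands, and no base was shared by 2 motifs. The AIFM2 window holds the antioxidant response element core as TGACTCAGC on the opposite strand, 22 to 14 bases before the start. The NQO1 window has none in these 250 bases, and its TATA box lies 29 to 24 bases before the start. Such a core was in 3 of the 9 windows of the members, against 10.9% of 35116 windows in all, a TATA box in 1 of 9, against 17.7%, and a GC box in 8 of 9, against 42.6%. The upstream GPD2 window, at 58% G and C, matched no motif, and the downstream one, at 76.8%, holds 4 GC boxes. The counts were made per gene, so they do not say which GPD2 start was used. A match is a description of letters and not evidence of binding.

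Across the 8 tested genes the 2 knockdowns and the rescue differed, and every fold change below is on the log2 scale from 1 edgeR quasi-likelihood model with Benjamini-Hochberg adjustment over all tested genes. In KD2, 6 of 8 genes differed from NT (35.9% of all tested genes did), 2 higher (17.8% of all) and 4 lower (18.2% of all). In KDR, 7 of 8 differed from NT (27.5% of all tested genes), 1 higher (13.0% of all) and 6 lower (14.5% of all). In KDR against KD2, 5 of 8 were called (32.4% of all tested genes), 3 higher (15.3% of all) and 2 lower (17.1% of all). In KD1, 0 of 8 differed from NT (0% of all tested genes; 0 of 8 at an unadjusted p under 0.05, against 6.12% of all tested genes, and 0 genes by DESeq2 and by limma-voom). The libraries of the groups did not overlap for 6 of 8 genes in KD2 against NT (42.5% of all tested genes), 7 of 8 in KDR against NT (38.2%), 6 of 8 in KDR against KD2 (49.9%) and 0 of 8 in KD1 against NT (9.40%). The 8 genes averaged over 15 CPM, and among the 9839 genes of at least 10 CPM the shares called were higher than among all genes, at 49.2% for KD2 against NT, 36.4% for KDR against NT and 42.3% for KDR against KD2. KD2 and KDR are each set against the same NT libraries, and KDR against KD2 shares libraries with both, so the comparisons are not independent.

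**Figure D1:**
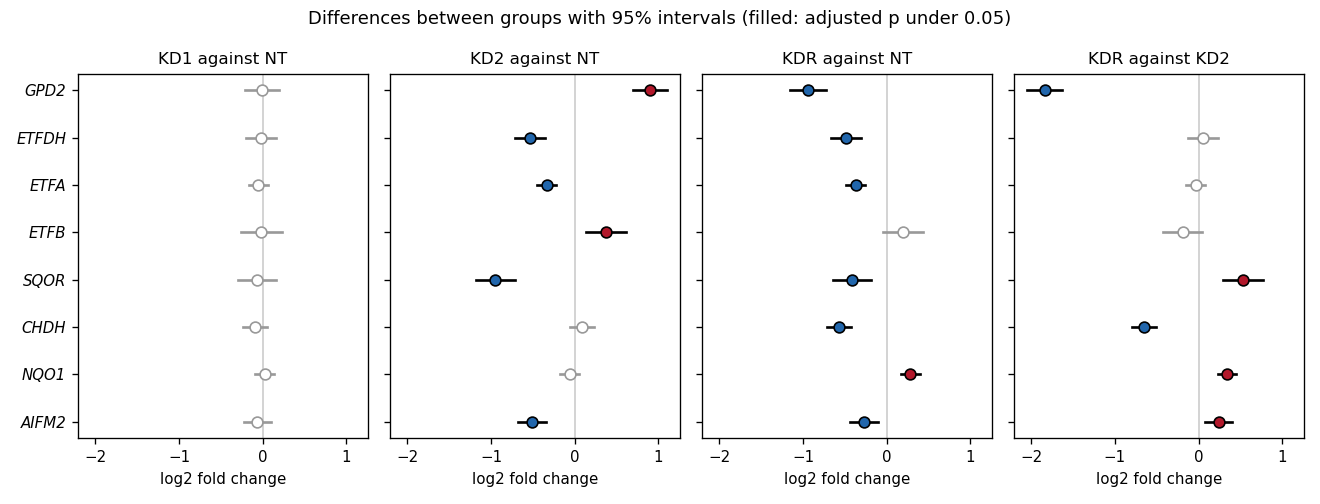
Log2 fold changes (points) with 95% intervals (bars) of the 8 tested genes in 4 comparisons, filled red where called higher and blue where called lower at an adjusted p under 0.05. The KD1 points lie near 0, GPD2 is at 0.90 in KD2 against NT and at -0.94 in KDR against NT, and ETFDH and ETFA are lower in both.

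GPD2 (ENSG00000115159, GRCh38 chromosome 2, 156435290 to 156613735, plus strand) is the mitochondrial enzyme of the glycerol phosphate shuttle, which moves electrons from cytosolic NADH to ubiquinone. It was at 8.51, 8.35 and 8.67 CPM in KDR, 31.3, 30.6 and 29.6 CPM in KD2, 16.4, 17.3 and 15.3 CPM in KD1, and 17.9, 15.2 and 15.8 CPM in NT. The KD2 libraries lay above all others and the KDR libraries below all others, while KD1 and NT overlapped. GPD2 rose 1.87-fold in KD2 relative to NT (log2 fold change 0.90 ± 0.10, SE; adjusted p = 9.1e-08). It fell in KDR relative to NT, to 0.521 of the NT level (-0.94 ± 0.10; adjusted p = 2.5e-07), and relative to KD2, to 0.279 of the KD2 level (-1.84 ± 0.10; adjusted p = 1.4e-12). The order was therefore KD2, then NT and KD1 without a detectable difference (KD1 against NT: -0.0040, 95% interval -0.21 to 0.20), then KDR. Over the 12 libraries, the genes whose log2 CPM ran most like that of GPD2 among 10457 protein-coding genes were AAK1 (Pearson r 0.992), ADGRG6 (0.992) and SORL1 (0.991).

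The counts in lists of related genes, here and below, were not tested as sets. Of all tested genes, 35.9% were called in KD2 against NT, 27.5% in KDR against NT and 32.4% in KDR against KD2. Among genes of at least 10 CPM these shares were 49.2%, 36.4% and 42.3%. The shares by direction given beside the lists are over all tested genes, and none was computed for genes of at least 10 CPM. The list around GPD2 held 10 genes of the glycerol phosphate shuttle and glycerol 3-phosphate supply, 9 of them tested. In KD2 against NT, 2 were higher (GPD2 and GPAM, the acyltransferase that uses glycerol 3-phosphate for lipid synthesis, at 37.6 against 30.3 CPM, 0.31) and 1 was lower (AGPAT2, an acyltransferase of the next step, -0.24), whose call was lost without KD2 replicate 1 or 2. In KDR against KD2, 2 were higher and 3 lower. The lower ones included GPD1L, a glycerol 3-phosphate dehydrogenase-like protein, at 132 against 179 CPM (-0.44, adjusted p = 1.4e-06). The higher ones were GK5 (0.35) and GK, glycerol kinase (0.66), and 1 of these calls was lost without KD2 replicate 2 or 3 or KDR replicate 2. GPD1, the cytosolic partner of GPD2, was at 0.35 CPM in KD2 and 0.31 CPM in NT and was not called.

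Electron transfer flavoprotein is a dimer of ETFA and ETFB, and ETFDH is the ubiquinone reductase that oxidises it. ETFA (ENSG00000140374, chromosome 15, 76188555 to 76311730, minus strand) was at 139.8, 139 and 144 CPM in KDR, 146, 143 and 144 CPM in KD2, 176, 172 and 178 CPM in KD1, and 172, 183 and 191 CPM in NT. The KDR and KD2 libraries lay below all KD1 and NT libraries. ETFA fell by 0.37 ± 0.05 (log2, SE) in KDR relative to NT (adjusted p = 1.7e-05) and by 0.34 ± 0.05 in KD2 relative to NT (adjusted p = 3.2e-05), while KDR against KD2 was -0.03 (95% interval -0.15 to 0.08; adjusted p = 0.69).

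ETFDH (ENSG00000171503, chromosome 4, 158671968 to 158710742, plus strand) was at 59.8, 56.4 and 51.5 CPM in KDR, 57.7, 52.9 and 50.9 CPM in KD2, 79.9, 77.7 and 73.8 CPM in KD1, and 72.5, 71.6 and 90.9 CPM in NT. All 6 KDR and KD2 libraries were lower than all 6 KD1 and NT libraries. ETFDH fell by 0.49 ± 0.09 in KDR (adjusted p = 1.6e-04) and by 0.54 ± 0.09 in KD2 (adjusted p = 2.9e-05) relative to NT, and KDR against KD2 was 0.05 (95% interval -0.13 to 0.23; adjusted p = 0.69). NT replicate 3, at 90.9 CPM, was the highest library. Exons of C4orf46 and PPID on the opposite strand overlap those of ETFDH over 7.98% of its exon bases together with a small RNA gene; PPID shares 5.98% of them and C4orf46 1.08%. PPID was lower in KDR than in NT (-0.32, adjusted p = 0.035), and its log2 fold change was -0.04 in KD2 against NT (adjusted p = 0.83). C4orf46 was -0.02 in KDR against NT (adjusted p = 0.94) and 0.87 higher in KD2 than in NT (adjusted p = 4.4e-06). The part of either in the ETFDH counts was not tested.

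ETFB (ENSG00000105379, chromosome 19, 51345169 to 51366388, minus strand) ran the other way from its partner in KD2. It was at 15.9, 17.7 and 15.0 CPM in KDR, 17.9, 19.8 and 17.8 CPM in KD2, 15.5, 14.3 and 12.5 CPM in KD1, and 13.5, 16.2 and 12.9 CPM in NT. All KD2 libraries lay above all others, and KDR overlapped both KD1 and NT. ETFB rose 1.30-fold in KD2 relative to NT (0.38 ± 0.12; adjusted p = 0.012), a call that ended without NT replicate 3 (0.32, adjusted p = 0.056) or KD2 replicate 2 (0.33, adjusted p = 0.064). KDR was not called against NT (0.19, 95% interval -0.05 to 0.43) or against KD2 (-0.19, -0.43 to 0.05). The libraries of KDR and KD2 did not overlap. Per kilobase of exon, ETFA was 5.92 ± 0.592 times ETFB in KDR, 5.29 ± 0.357 times in KD2, 8.50 ± 1.00 times in KD1 and 8.77 ± 1.20 times in NT (SD, n = 3 each). Every KDR and KD2 library had a lower ratio than every KD1 and NT library. The ratio of ETFA to ETFDH was 6.31 ± 0.598 in KDR, 6.69 ± 0.388 in KD2, 5.67 ± 0.289 in KD1 and 5.84 ± 0.574 in NT, with both KDR and KD2 overlapping NT, and KDR overlapping KD1. The ratios are descriptions, and no test of them was run. Their size depends on the length used. Over the 12 libraries, ETFA and ETFB averaged 16.8 and 2.43 CPM per kilobase of exon. Per kilobase of median transcript length they averaged 140.5 and 7.08 CPM.

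**Figure D2:**
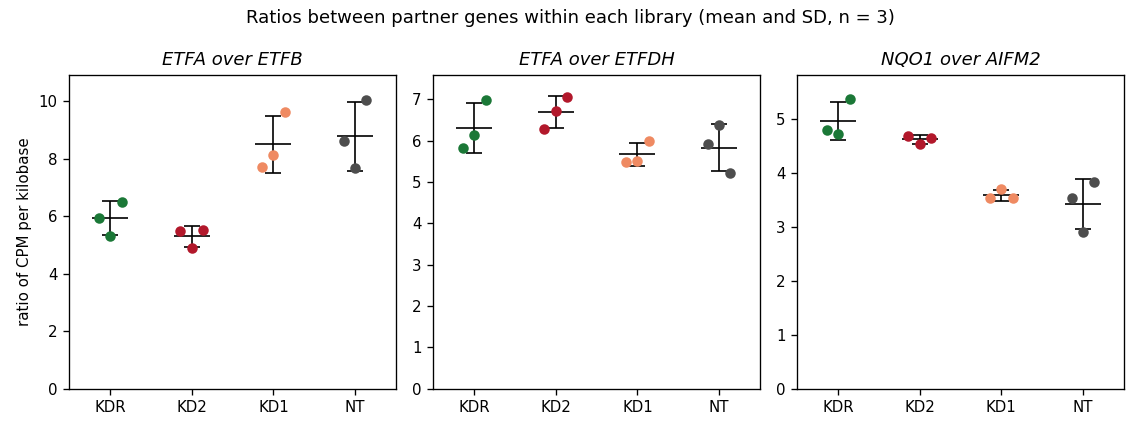
Ratio of CPM per kilobase between pairs of members in each library (points), with group mean and SD (bars), n = 3. The ETFA over ETFB ratio is lower in the KDR and KD2 libraries than in the KD1 and NT libraries, and NQO1 over AIFM2 is higher in them.

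Of 14 flavin dehydrogenases that hand electrons to electron transfer flavoprotein, 13 were tested. Among genes of at least 10 CPM, 49.2% were called in either direction in KD2 against NT. In KD2 relative to NT, 0 rose (17.8% of all tested genes did) and 7 fell (18.2% of all). They included DMGDH, dimethylglycine dehydrogenase (9.40 against 23.2 CPM, -1.30, adjusted p = 3.0e-09), ACADS, short-chain acyl-CoA dehydrogenase (18.1 against 37.4 CPM, -1.05, adjusted p = 2.1e-08), ACADVL, very-long-chain acyl-CoA dehydrogenase (-0.26) and IVD, isovaleryl-CoA dehydrogenase (-0.18). The count of 7 fell to 4 without KD2 replicate 2 or 3, and 1 gene was called higher without NT replicate 2. In KDR against NT, 2 were lower and 0 higher, ACADSB (-0.52) and ACADS (-0.51), and 1 was higher without NT replicate 2. In KDR against KD2, 5 were higher and 1 lower, with DMGDH at 19.9 against 9.40 CPM (1.08, adjusted p = 8.4e-08) and ACADS at 26.3 against 18.1 CPM (0.54).

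SQOR (ENSG00000137767, chromosome 15, 45631148 to 45691281, plus strand) oxidises hydrogen sulfide and passes the electrons to ubiquinone. It was at 17.1, 15.2 and 17.7 CPM in KDR, 10.8, 11.9 and 12.0 CPM in KD2, 21.4, 23.3 and 18.9 CPM in KD1, and 19.4, 24.8 and 22.6 CPM in NT. The KD2 libraries were the lowest, the KDR libraries came next, and KD1 and NT overlapped above them. SQOR fell in KD2 relative to NT by 0.95 ± 0.11 (adjusted p = 6.1e-07), to 0.519 of the NT level. It was higher in KDR than in KD2 (0.53 ± 0.12, 1.45-fold, adjusted p = 9.4e-04), yet lower in KDR than in NT (-0.42 ± 0.11, adjusted p = 0.0070), a call that ended without KDR replicate 2 (-0.35, adjusted p = 0.050). A protein-coding gene on the same strand, ENSG00000260170, shares 30.0% of the exon bases of SQOR and had 0 counts in every library. Whether reads in the shared bases were left out of the SQOR counts was not tested.

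Of 10 tested sulfide supply and oxidation genes, 5 were lower (18.2% of all tested genes) and 1 higher (17.8%) in KD2 than in NT. The share called in either direction was 49.2% among genes of at least 10 CPM. SELENBP1, methanethiol oxidase, was at 149 against 266 CPM (-0.84, adjusted p = 1.6e-09), and TSTD1 (-0.42) and SUOX, sulfite oxidase (-0.41), were lower besides SQOR, and MPST, a sulfurtransferase, was higher (0.33). In KDR against NT 3 were lower and 0 higher, and in KDR against KD2 4 were higher and 2 lower, with SELENBP1 at 225 against 149 CPM (0.59) and MPST at 41.8 against 58.9 CPM (-0.49).

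CHDH (ENSG00000016391, chromosome 3, 53812335 to 53846419, minus strand), choline dehydrogenase, was at 49.3, 45.9 and 45.9 CPM in KDR, 71.4, 74.4 and 76.6 CPM in KD2, 62.1, 67.9 and 66.6 CPM in KD1, and 65.7, 73.4 and 69.8 CPM in NT. The KDR libraries lay below all others, and the KD2 and NT libraries overlapped. CHDH fell in KDR relative to NT by 0.57 ± 0.07 (adjusted p = 1.4e-06) and relative to KD2 by 0.66 ± 0.07 (adjusted p = 1.1e-07). In KD2 against NT the log2 fold change was 0.09 (95% interval -0.05 to 0.23; adjusted p = 0.34). Exons of CACNA1D, a calcium channel gene on the opposite strand, share 18.0% of the exon bases of CHDH; CACNA1D was at 15.6 CPM in KDR and 20.2 CPM in KD2 (-0.37, adjusted p = 0.013), and its part in the CHDH counts was not tested. Of 14 tested choline and betaine genes, 2 were higher (13.0% of all tested genes) and 2 lower (14.5%) in KDR than in NT. The lower ones were CHDH and ALDH7A1, which oxidises betaine aldehyde among other aldehydes, at 8.88 against 19.1 CPM (-1.10, adjusted p = 2.7e-08). The higher ones were SLC44A1, a choline transporter (0.24), and CHKB, choline kinase beta (0.86), and both calls were lost without KDR replicate 1 and 1 of them without NT replicate 3. In KD2 against NT, 3 were higher and 3 lower, among them FLVCR1 (0.47) and PEMT (0.45) higher and DMGDH (-1.30) lower.

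PRODH (ENSG00000100033, chromosome 22, 18912777 to 18936553, minus strand), proline dehydrogenase, had 0 to 10 counts in a library and was not tested. It had 2, 1 and 0 counts in KDR, 0, 0 and 0 counts in KD2, 0, 4 and 0 counts in KD1, and 0, 10 and 0 counts in NT. A count of 0 allows up to 0.0851, 0.104 and 0.125 CPM in the KD2 libraries, by counting error alone. NT replicate 2 held the highest count. Its exons share 9.39% of their bases with DGCR6 and an antisense transcript, and a pseudogene, PRODHLP, had 2 to 17 counts, so reads that fit both copies cannot be placed. Of the 12 genes of the proline and glutamate cycle, 8 were tested. In KD2 against NT, 0 were higher (17.8% of all tested genes) and 4 lower (18.2%). The share called in either direction was 49.2% among genes of at least 10 CPM. The lower ones were OAT, ornithine aminotransferase (19.1 against 34.1 CPM, -0.83, adjusted p = 8.4e-08), and GLUD1, glutamate dehydrogenase (-0.41), with PYCR1, pyrroline-5-carboxylate reductase (-0.41), and ALDH4A1, which completes proline oxidation (-0.43). In KDR against KD2, 3 were higher, among them OAT at 33.8 against 19.1 CPM (0.82).

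NQO1 (ENSG00000181019, chromosome 16, 69706996 to 69726668, minus strand), a cytosolic quinone reductase, was at 188, 192 and 204 CPM in KDR, 158, 152 and 152 CPM in KD2, 161, 163 and 163 CPM in KD1, and 154, 160.4 and 166 CPM in NT. Every KDR library was above every other library, and the KD2 libraries overlapped those of NT. NQO1 rose in KDR relative to NT by 0.28 ± 0.05 (1.22-fold, adjusted p = 3.4e-04), relative to KD2 by 0.34 ± 0.05 (1.27-fold, adjusted p = 3.2e-05) and relative to KD1 by 0.26 (adjusted p = 7.8e-04). KD2 against NT was -0.06 (95% interval -0.17 to 0.06; adjusted p = 0.45). An antisense gene on the opposite strand, ENSG00000261602, shares 19.4% of the exon bases of NQO1 and had 0 counts in every library. Whether reads in these shared bases were left out of the NQO1 counts was not tested.

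AIFM2 (ENSG00000042286, chromosome 10, 70098223 to 70132934, minus strand), a NAD(P)H-dependent ubiquinone reductase that protects membranes from lipid peroxidation, was at 67.9, 70.2 and 65.7 CPM in KDR, 58.2, 57.9 and 56.5 CPM in KD2, 78.9, 76.3 and 80.03 CPM in KD1, and 75.5, 95.2 and 74.9 CPM in NT. The KD2 libraries were the lowest, the KDR libraries lay between them and NT, and NT replicate 2 was the highest. AIFM2 fell in KD2 relative to NT by 0.51 ± 0.08 (to 0.703 of the NT level, adjusted p = 1.9e-05). In KDR it was 0.27 ± 0.08 lower than in NT (adjusted p = 0.012; -0.15 without NT replicate 2, and the call was lost without KDR replicate 3, adjusted p = 0.059, and with only the compared groups in the model, adjusted p = 0.058). KDR was 0.24 ± 0.08 higher than KD2 (adjusted p = 0.023), a call lost without any 1 of KD2 replicates 1 to 3 or KDR replicates 1 and 2 (adjusted p = 0.053 to 0.094). Exons of MACROH2A2, a histone variant gene on the opposite strand, share 19.2% of the exon bases of AIFM2; MACROH2A2 fell in KD2 too (4.48 against 13.1 CPM, -1.54, adjusted p = 5.2e-08), and its part in the AIFM2 counts was not tested. The ratio of NQO1 to AIFM2 per kilobase was 4.96 ± 0.352 in KDR, 4.62 ± 0.0792 in KD2, 3.59 ± 0.0968 in KD1 and 3.42 ± 0.466 in NT, and every KDR and KD2 library was above every KD1 and NT library.

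**Figure D3:**
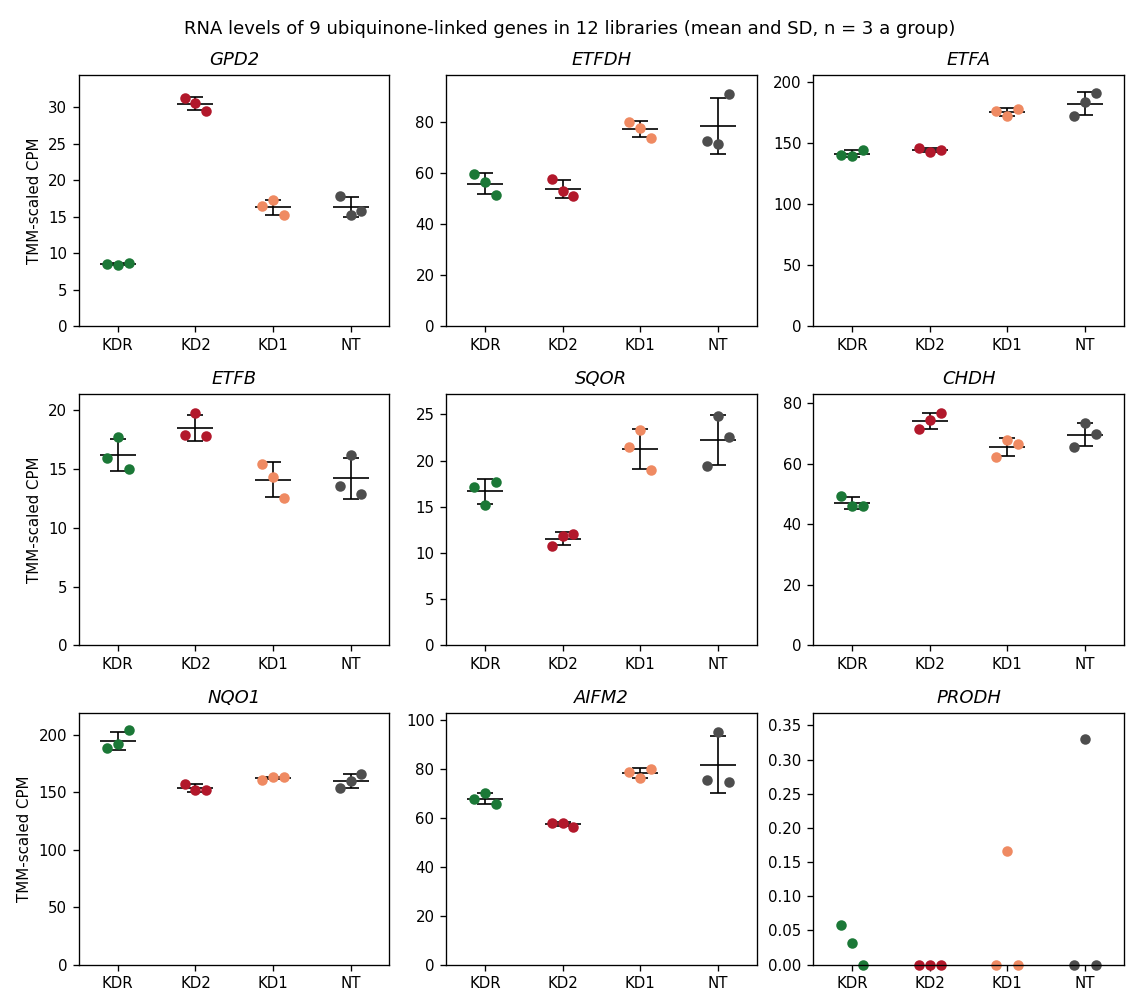
TMM-scaled CPM of the 9 genes in each library (points), with group mean and SD (bars, n = 3), for KDR, KD2, KD1 and NT, PRODH as points only. GPD2 is highest in KD2 and lowest in KDR, CHDH is lowest and NQO1 highest in KDR, and SQOR and AIFM2 are lowest in KD2.

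Of 12 quinone reductase genes, 4 were lower (18.2% of all tested genes) and 1 higher (17.8%) in KD2 than in NT. The share called in either direction was 49.2% among genes of at least 10 CPM. Besides AIFM2, the lower ones included NQO2, a quinone reductase (31.9 against 42.4 CPM, -0.41, adjusted p = 8.1e-05), and CYB5R1, a cytochrome b5 reductase (-0.36), and the higher one was CRYZ, zeta-crystallin (0.42, adjusted p = 5.2e-04). In KDR against NT, 3 were lower and 1 higher; TXNRD1, thioredoxin reductase (-0.26), was lower and NQO1 was the higher one. The count of higher genes was 2 without NT replicate 1, NT replicate 2 or KDR replicate 1. Of 14 genes that make ubiquinone and menaquinone, 6 were lower and 0 higher in KD2 than in NT. In KDR, 6 were lower (14.5% of all tested genes) and 1 higher (13.0%) relative to NT. COQ9, a lipid-binding member of the ubiquinone synthesis complex, was lower in KD2 (-0.38, adjusted p = 0.0011) and in KDR (-0.33, adjusted p = 0.0054), as was COQ8B in KD2 (-0.38). The lower count of 6 fell to 3 in KD2 without NT replicate 1 or KD2 replicate 2, and to 3 in KDR without KDR replicate 1.

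Of all tested genes, 18.2% were lower and 17.8% higher in KD2 than in NT, and 49.2% of those of at least 10 CPM were called. The counts in the short lists that follow are given as a description beside these shares. In KD2 against NT, 2 of 8 genes of the malate-aspartate shuttle, the other carrier of cytosolic NADH electrons, were lower and 0 higher, SLC25A13 (-0.64) and GOT1 (-0.59). Of 8 genes of complex II and its assembly, 1 was lower, SDHAF1 (-0.40), and 2 were without NT replicate 1. Of 5 tested genes of riboflavin uptake and FAD synthesis, 1 was lower, SLC52A2 (-0.25), and 0 were without KD2 replicate 1 or 2.

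In lists that share members with the reductases, 12 of 21 tested NRF2 regulators and targets were lower and 3 higher in KD2 than in NT. Among all tested genes, 18.2% were lower and 17.8% higher in KD2, and 49.2% of those of at least 10 CPM were called in either direction. OSGIN1 was lower (-1.34, adjusted p = 9.2e-11), as were FTL, ferritin light chain (-0.55), and SLC7A11, the cystine transporter (-0.58), while ABCC1, a drug and glutathione exporter, was higher (0.76). In KDR, 8 were lower and 5 higher relative to NT, the 8 becoming 5 without KDR replicate 3. In KDR against KD2, 8 were higher and 3 lower, SLC7A11 at 480.3 against 322 CPM (0.58) and GCLC, which makes glutathione, at 82.5 against 59.7 CPM (0.46), and the 3 lower became 5 without NT replicate 2. Among 12 tested genes of ferroptosis control, which hold suppressors such as GPX4 and AIFM2 but also ACSL4 and LPCAT3, known to promote ferroptosis, 5 were lower and 3 higher in KD2 than in NT, with SLC3A2, the partner of SLC7A11, at 473 against 899 CPM (-0.93, adjusted p = 2.0e-12) and ACSL3 at 399 against 299 CPM (0.42). ACSL4, named here after its values were seen, was 1 of the 3 higher ones, at 6.01 against 1.94 CPM (1.63, adjusted p = 3.3e-05).

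**Figure D4:**
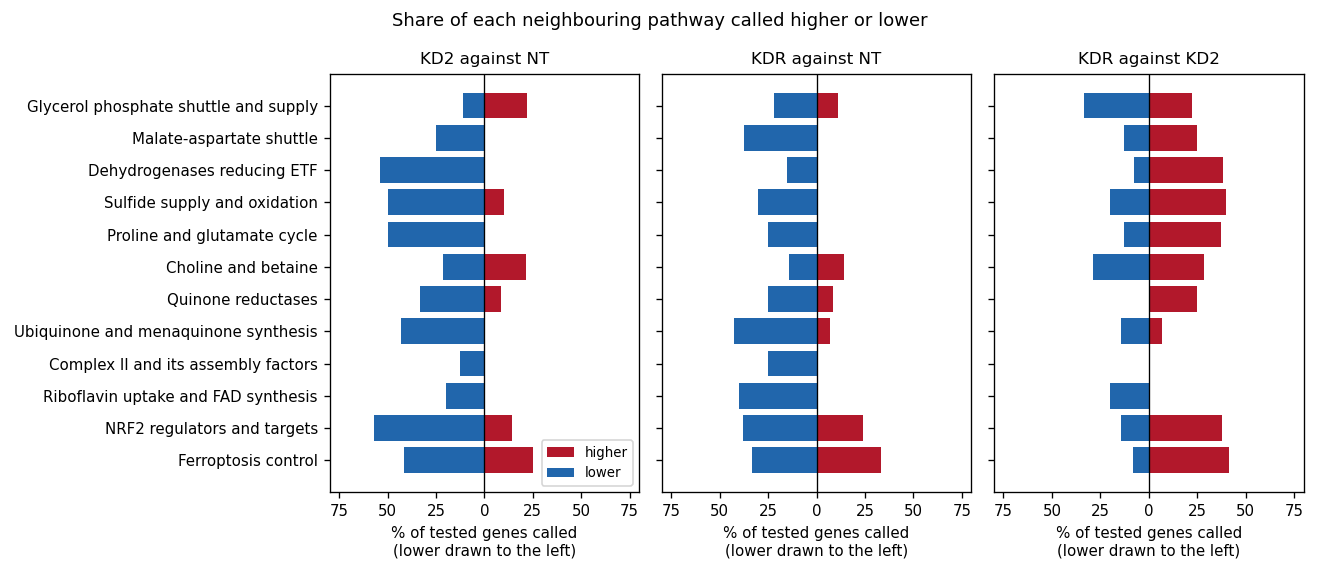
Percentage of tested genes of each list called higher (red, to the right) or lower (blue, to the left) in 3 comparisons, at an adjusted p under 0.05. Lower calls outnumber higher calls in KD2 against NT in every list drawn except the glycerol phosphate list and the choline list. Higher calls outnumber lower calls in KDR against KD2 for the ETF, malate-aspartate, sulfide, proline, quinone reductase, NRF2 and ferroptosis lists.

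Levels can be set against each other only per length. Per kilobase of annotated exon, over the 12 libraries, NQO1 averaged 56.5 CPM, ETFA 16.8 CPM, AIFM2 13.9 CPM, CHDH 8.23 CPM, SQOR 6.09 CPM, ETFDH 2.78 CPM, GPD2 2.50 CPM, ETFB 2.43 CPM and PRODH 0.00562 CPM. The exons of all annotated transcripts of ETFDH span 23865 bases, against a median transcript of 2592.5 bases, which puts ETFDH at rank 3 by transcript length, at 25.6 CPM per kilobase, and at rank 6 by exon length. NQO1 at 165 CPM and ETFA at 140.5 CPM per kilobase of transcript held ranks 1 and 2 on both scales.

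**Figure D5:**
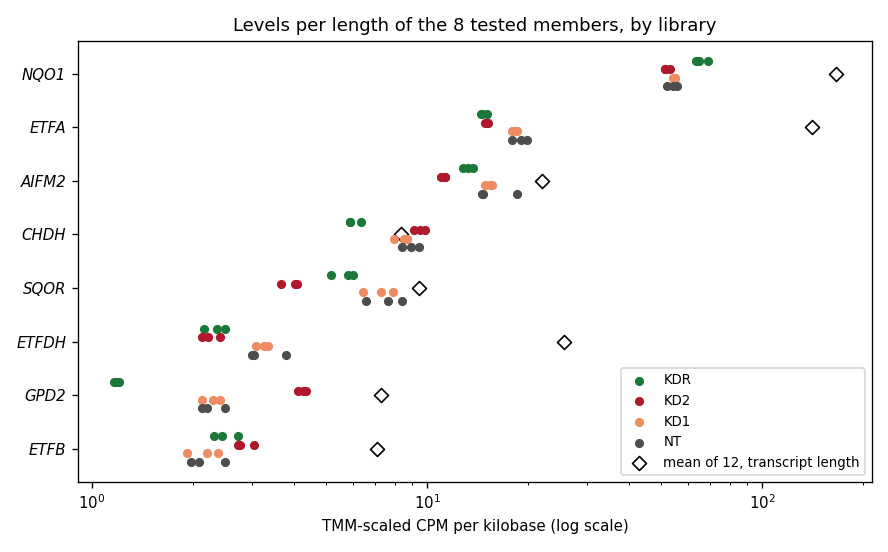
CPM per kilobase of exon of the 8 tested genes in each library (points, log axis), coloured by group, with the mean of the 12 libraries per kilobase of median transcript length (diamonds). NQO1 is highest on both scales, and ETFDH moves most between them.

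Set against the other knockdown, KD2 differed from KD1 in 7 of 8 genes (35.5% of all tested genes, and 48.9% of those of at least 10 CPM), 3 higher (17.9% of all) and 4 lower (17.5% of all), with GPD2 0.91 higher (adjusted p = 8.6e-08) and SQOR 0.88 lower (adjusted p = 1.9e-06). The libraries of KD2 and KD1 did not overlap for 8 of 8 genes (49.7% of all tested genes). CHDH was among the higher ones (0.18, adjusted p = 0.048), and 12 of 19 alternatives ended its call, leaving out any 1 of the 3 KD1, 3 KD2 or 3 KDR libraries or NT replicate 3 among them (adjusted p = 0.053 to 0.20). The call of ETFB, 0.40 higher (adjusted p = 0.0093), was lost without KD1 replicate 3 or KD2 replicate 2. KDR differed from KD1 in 6 of 8 genes (27.1% of all tested genes, and 36.0% of those of at least 10 CPM), 1 higher (13.3% of all) and 5 lower (13.8% of all), and the libraries did not overlap for 7 of 8 (47.1%). SQOR was 0.35 lower in KDR than in KD1 (adjusted p = 0.024), a call lost without KD1 replicate 1 or 2 or KDR replicate 1 or 2. AIFM2 was -0.21 for KDR against KD1 (adjusted p = 0.054, edgeR), and 9 of 19 alternatives called it. Among them were DESeq2 (adjusted p = 0.039), limma-voom with sample weights (adjusted p = 0.0018) and leaving out any 1 of the NT libraries. The 8 genes had a median log2 fold change of -0.20 in KD2 against NT, -0.39 in KDR against NT and 0.01 in KDR against KD2, beside -0.0099, 0.0088 and 0.02 over all tested genes. Over the 12 libraries, the genes most like the other members were PDCD4 for ETFDH (Pearson r 0.962), S100P for SQOR (0.977), SDC1 for CHDH (0.980), APLP2 for ETFA (0.984), TAOK2 for ETFB (0.948), USP3 for NQO1 (0.974) and CTSB for AIFM2 (0.993), as a description over libraries that share their groups.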

How the data were processed

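RNA from 12 libraries of 4 groups was measured. The authors deposited whole-number counts per gene, made with featureCounts 1.6.4 over exons of Ensembl release 111 on GRCh38, per the file headers, with no option for strand or for read pairs, which counts the ends of a pair separately. Gene length is the other deposited value used, as the exon bases per gene. Per the submitters' processing notes, HISAT2, cutadapt and FastQC were used, with no version given in the sources used here. Total counts per library were 23786288 to 38240369, and limits on counts of 0 cover counting error only, while the 95% intervals of fold changes come from the model and include the spread between libraries. The 42338 genes with a symbol held 99.3% of counts.

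Counts were tested in R 4.3.3 with edgeR 4.0.16 (filterByExpr, TMM scaling, quasi-likelihood test, group as the only term, all 12 libraries). A gene was called at a Benjamini-Hochberg adjusted p under 0.05 over 19373 genes. DESeq2 1.42.0 and limma-voom (limma 3.58.1) were alternatives, with DESeq2 size factors, other filters, only the compared groups, a replicate block and each library left out. Python 3.11.15, pandas 2.3.3 and matplotlib 3.10.9 made tables and figures. The genes and lists were chosen with earlier results of these data known. Genes named are the members, DHODH, up to 4 genes by adjusted p per list, genes with exons shared with a member, and the genes most like a member by Pearson r among those of at least 5 CPM. Deviations of same-numbered libraries from their group means correlated at -0.16 to 0.25 over 18 pairs, with 1 pair over 0.1. Such a check with 3 libraries a group cannot exclude a shared culture or day. The labels do not say what the numbers mark, and the main model did not pair libraries. On simulated data, 2-fold changes were called for 79% of 100 genes in KD2 against NT and 95% in KDR against KD2. Simulated 1.5-fold changes were called for 70% in each of these. For KD1 against NT the shares were 86% at 2-fold and 74% at 1.5-fold. The genes were drawn anew for each comparison, so these shares do not rank the comparisons.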

Additional observations from a re-analysis of the deposited data

Results flagged for a closer look

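The comparison of KD2 with KD1, given above, was a direct contrast within the same model, since both are set against the same NT libraries. It was past the threshold for 7 of the 8 genes, beside 35.5% of all tested genes and 48.9% of those of at least 10 CPM. The log2 difference was 0.91 for GPD2, -0.52 for ETFDH, -0.88 for SQOR, 0.18 for CHDH, -0.28 for ETFA, 0.40 for ETFB and -0.45 for AIFM2, with edgeR adjusted p from 8.6e-08 for GPD2 to 0.048 for CHDH. The call of CHDH was lost in 12 of 19 alternatives and that of ETFB in 2, and CHDH was not called against NT in either KD2 or KD1. DHODH RNA was not called lower in KD2 or KD1 than in NT, so these are differences between libraries as labelled.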

How the results depend on the processing

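Over 19 alternatives, none of the 31 called differences of the 8 genes reversed in 589 repeats, and 28 repeats ended a call. Differences that were not called changed sign for KD1 against NT only: GPD2 to 0.0010 with DESeq2 size factors, 0.012 with no filter and 0.0066 with only the compared groups; ETFB to 0.0025 with no filter and 0.042 with voom; AIFM2 to 0.030 and DHODH to 0.12 with voom. Leaving out 1 library gave for KD1 against NT -0.051 to 0.069 (GPD2), -0.080 to 0.10 (ETFDH), -0.16 to 0.017 (SQOR), -0.085 to 0.090 (ETFB), -0.0041 to 0.052 (NQO1), -0.12 to 0.063 (AIFM2) and -0.13 to 0.19 (DHODH). With no filter on low counts, 23 genes were called for KD1 against NT (17 higher, 6 lower), against 0; the cause was not tested. The replicate block changed 2 calls, CHDH in KD2 against KD1 (0.18, adjusted p = 0.056) and AIFM2 in KDR against KD1 (-0.21, adjusted p = 0.0496, called), and no other call of a member. Of 3192 repeats of 168 list counts, 245 moved by over 1.5 times. ETFDH was at rank 3 per length, against rank 6, with transcript length, an alternative chosen after seeing the data. PRODH, with 0 to 10 counts a library, was not tested.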
